A study of Mus musculus with 14 samples.

Results

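The genes described here encode the enzymes that make nucleotides, serine, proline and folate-bound one-carbon units. They are 37 genes, listed by name with earlier results of these data known, out of 54446 gene identifiers in the files. All 37 were found, all 37 passed the filter on low values (a mean of at least 1 TPM over the libraries), and they were grouped by role into PRPP synthesis (2 genes), de novo purine synthesis (10), de novo pyrimidine synthesis (5), deoxynucleotide supply (9), serine synthesis (3), folate one-carbon metabolism (6) and proline synthesis (2). RNA-seq was available for 14 libraries of E14 mouse embryonic stem (ES) cells, a line grown here on gelatin in serum and LIF without feeder cells. Wild-type (WT) cells were collected at 0, 24, 72 and 144 h, and Tet1/2 DKO cells at 0, 24 and 72 h, of mTOR inhibition (mTORi) by the drug INK128, which puts ES cells into a dormancy-like state. The DKO line was made from E14 cells by Cas9 with guides against Tet1 and Tet2, and clones were grown from single sorted cells and screened by PCR, with the knockouts checked on western blots for both proteins. Each of the 7 groups had 2 replicates. Every group shares the culture conditions, and the 0 h libraries of each genotype are the controls of all later times of that genotype.

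These pathways feed one another. PRPP is the activated ribose on which purine and pyrimidine nucleotides are built, and ribonucleotide reductase turns ribonucleotides into the deoxynucleotides that DNA replication consumes. Serine, made from a glycolytic intermediate, gives up its side-chain carbon to folate, and that carbon enters the purine ring and thymidylate. mTORC1 is known to promote purine synthesis and the mitochondrial folate cycle, in part through the transcription factor ATF4, which also drives genes of serine and proline synthesis, while many deoxynucleotide genes are E2F targets that peak at the start of DNA synthesis.

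RNA came from a fixed number of sorted cells with ERCC RNAs added, so values are given on 2 scales. Spike-in normalized TPM are the deposited TPM multiplied by 1 factor per library, from 1.0 to 2.81, and they follow the amount of RNA per cell. Deposited TPM sum to 1000000 in every library and follow a gene's share of the RNA. In bulk samples, fewer cells of a type and less RNA per cell cannot be told apart. Differences are log2 fold changes of TPM + 1 from limma, with their standard error (SE), and a gene was called when its Benjamini-Hochberg adjusted p was under 0.05. Between 28306 and 29927 genes were above 0 in each library. Depth is not known from TPM.

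The targeted genes were looked at first. Tet2 was at 210.4 and 203 spike-in normalized TPM at 0 h in WT and at 53.9 and 52.7 in the libraries labelled DKO. Tet1 was at 416 and 403 in WT and at 427 and 349 in the libraries labelled DKO at 0 h, so the groups overlapped on that scale. In deposited TPM it was at 197 and 191 in WT and 152 and 147 in the libraries labelled DKO at 0 h, and both libraries labelled DKO were below both WT libraries at each shared time. Tet1 RNA thus remained in every library, and a gene-level value also takes reads from exons outside a deletion. For this reason these libraries are called "labelled DKO" throughout, wherever a direction is drawn from them. ES cell identity genes (Pou5f1, Nanog and 5 others) summed to 9559 and 11295 spike-in normalized TPM before mTORi and 7428 and 6625 after 144 h in WT, and none was at 0 in any library. In deposited TPM the same sum was higher after 144 h (6939 and 6625) than before (4528 and 5350.2), so its direction depends on the scale. Primitive endoderm and trophectoderm markers had their highest WT sums at 24 h. The 7 primitive endoderm genes, all above 0 in every library, summed to 27.8 and 91.4 before mTORi, 151 and 343 after 24 h, 23.0 and 58.8 after 72 h and 14.9 and 13.1 after 144 h in WT, and from 32.9 to 159.9 in libraries labelled DKO. At 24 h in WT 4 of the 7 rose, led by Gata4 (2.27) and Gata6 (2.18), and 7 of 7 with the replicate block, against 1.25% and 4.48% of all genes. The 7 trophectoderm genes summed to 69.9 and 69.7 before mTORi and 189.5 and 82.9 after 24 h in WT. Of the 6 tested, 0 were called higher at 24 h without the replicate block (limma, 2 at an unadjusted p under 0.05). With the block 2 were, Krt18 (1.03) and Krt8 (0.98), keratins of simple epithelia that were named after their values were seen. Of the same 6 genes 3 had a fitted change below 0, with a lowest value of −0.61 and a median of 0.077. The part of either list in the WT 24 h results was not tested.

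The promoters of the members were searched for 3 motifs that bear on these pathways, in the RefSeq windows of GRCm38.p6 that run from 250 bases before to 50 bases after a gene's start. Windows were on hand for 33 of the 37 genes (40 windows), and for 32851 windows in all. The core of the C/EBP-ATF response element, which ATF4 binds, was searched as TGATGNAA, the E2F site as TTTNNCGC and the E-box, bound by MYC and TFE3, as CACGTG, all on both strands. TGATGNAA was found in 2 of 40 member windows (5.0%) against 3.97% of all windows, TTTNNCGC in 8 of 40 (20.0%) against 5.17%, and CACGTG in 7 of 40 (17.5%) against 7.15%. A gene can have several windows, and Nme1 has a pair that share sequence. The windows below are shown because they hold the ATF core upstream of a proline and a PRPP gene, E2F sites upstream of genes at the head of purine synthesis, and E-boxes upstream of a thymidylate and a proline gene. Each is 30 bases in the gene's direction, with the motif in capitals, and the number after the strand is the motif's first base relative to the RefSeq start.
Pycr1, ATF core, chr11:120643833-120643862, minus strand, −103: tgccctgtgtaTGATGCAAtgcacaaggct
Prps1, ATF core, chrX:140456422-140456451, plus strand, −170: ggctatctttgTGATGTAAaaagtgcttta
Prps1, E2F, chrX:140456451-140456480, plus strand, −141: aatttaacccgTTTCACGCctctgaacaaa
Ppat, E2F on the opposite strand, chr5:76951771-76951800, minus strand, −211: gagcagaccgcGCGGGAAAaaagggcagtg
Ppat, E2F on the opposite strand, chr5:76951718-76951747, minus strand, −158: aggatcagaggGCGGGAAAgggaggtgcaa
Tyms, E-box, chr5:30073669-30073698, minus strand, −61: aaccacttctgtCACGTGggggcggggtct
Aldh18a1, E-box, chr19:40588505-40588534, minus strand, −59: ggagggggccgcCACGTGgagcgtgggcgc
Ppat and Paics lie head to head, and both Ppat windows fall inside the annotated Paics gene. The ATF core was in 0 of 4 windows of the serine genes and 0 of 5 of the folate genes, which says only that these letters are not in those windows.

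Under mTORi many of the members fell and none rose on the spike-in scale. In WT the members called lower numbered 21 of 37 after 24 h, 19 after 72 h and 36 after 144 h, with 0 called higher each time (limma, 0 also at an unadjusted p under 0.05). Among all 18232 genes tested the share called lower was 8.73%, 7.6% and 50.5%, and the share called higher 1.25%, 0.697% and 0.461%. In libraries labelled DKO 29 members were called lower at 24 h and 11 at 72 h, with 0 higher, against 18.7% and 2.95% of all genes lower and 0.505% and 0.713% higher. The members' summed level was 9475 and 10288 spike-in normalized TPM at 0 h in WT, 4624 and 5785 after 24 h, 5639 and 4609.9 after 72 h and 3976 and 3632 after 144 h. It was 13728 and 11744, 7295 and 4437 and 8798 and 6172 at 0, 24 and 72 h in libraries labelled DKO. In both genotypes every treated library summed to less than either 0 h library.

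The whole transcriptome also moved down on the spike-in scale, so the members were read against it. Their median log2 fold change in WT was −0.96, −0.95 and −1.30 at 24, 72 and 144 h, against a median over all genes tested of −0.33, −0.33 and −0.83. In libraries labelled DKO it was −1.17 and −0.82 at 24 and 72 h, against −0.49 and −0.12. Between 33 and 36 of the 37 members lay below the median of all genes in each of these comparisons. In deposited TPM the median over all genes was from −0.0077 (24 h in WT) to 0.14 (72 h in libraries labelled DKO), and the members' median was −0.58, −0.52 and −0.27 in WT and −0.60 and −0.51 in libraries labelled DKO. On that scale 28, 24 and 16 members were called lower in WT, against 14.1%, 11.4% and 11.7% of all genes, and 28 and 24 in libraries labelled DKO, against 13.3% and 9.06%. It called 2, 1 and 1 members higher in WT and 1 at each time in libraries labelled DKO, against 15.8%, 12.6%, 15.6%, 11.6% and 17.2% of all genes.

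The count of calls depended on single libraries. With the replicate number as a block within each genotype, 30, 31 and 36 members were called lower in WT (background 25.7%, 25.4% and 66.3%) and 34 and 25 in libraries labelled DKO (38.1% and 13.2%). The block added calls at 24 h in WT (Ppat, Gart, Impdh1, Gmps, Adss, Cad, Dhodh, Ctps and Dck), at 72 h in WT (Prps1, Pfas, Atic, Gmps, Cad, Dhodh, Umps, Ctps, Tyms, Dck, Shmt1 and Aldh1l2), at 24 h in libraries labelled DKO (Prps1, Paics, Impdh2, Cad and Ctps) and at 72 h there (Prps1, Prps2, Adsl, Atic, Impdh1, Adss, Dhodh, Umps, Rrm1, Dck, Dut, Nme1, Nme2 and Mthfd1l). It removed none and added none at 144 h in WT. Leaving out 1 library left 8 calls at 24 h in WT without WT 0 h replicate 2 or WT 24 h replicate 1, and 10 without WT 0 h replicate 1. At 72 h in WT it left 3 to 8 without either library of the 0 h or 72 h group, and for libraries labelled DKO at 24 h 14 without 0 h replicate 1 and 15 without 24 h replicate 2. The 72 h count of libraries labelled DKO was 2 without 72 h replicate 2, 4 and 7 without 0 h replicate 1 or 2, and 22 without either 24 h library, which enters only through the shared estimate of the spread. Calls that held in all 14 such fits numbered 8, 3 and 25 at 24, 72 and 144 h in WT and 12 and 2 at 24 and 72 h in libraries labelled DKO, those of Phgdh and Mthfd2 in every comparison and of Psat1 at each WT time. These fits assume that a lone library varies like those of the other groups. The labels do not say whether replicates came from separate cultures. The study's reporting summary speaks of biological replicates and of independent repeats for its experiments in general. The p-values measure the spread between these libraries.

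**Figure D1:**
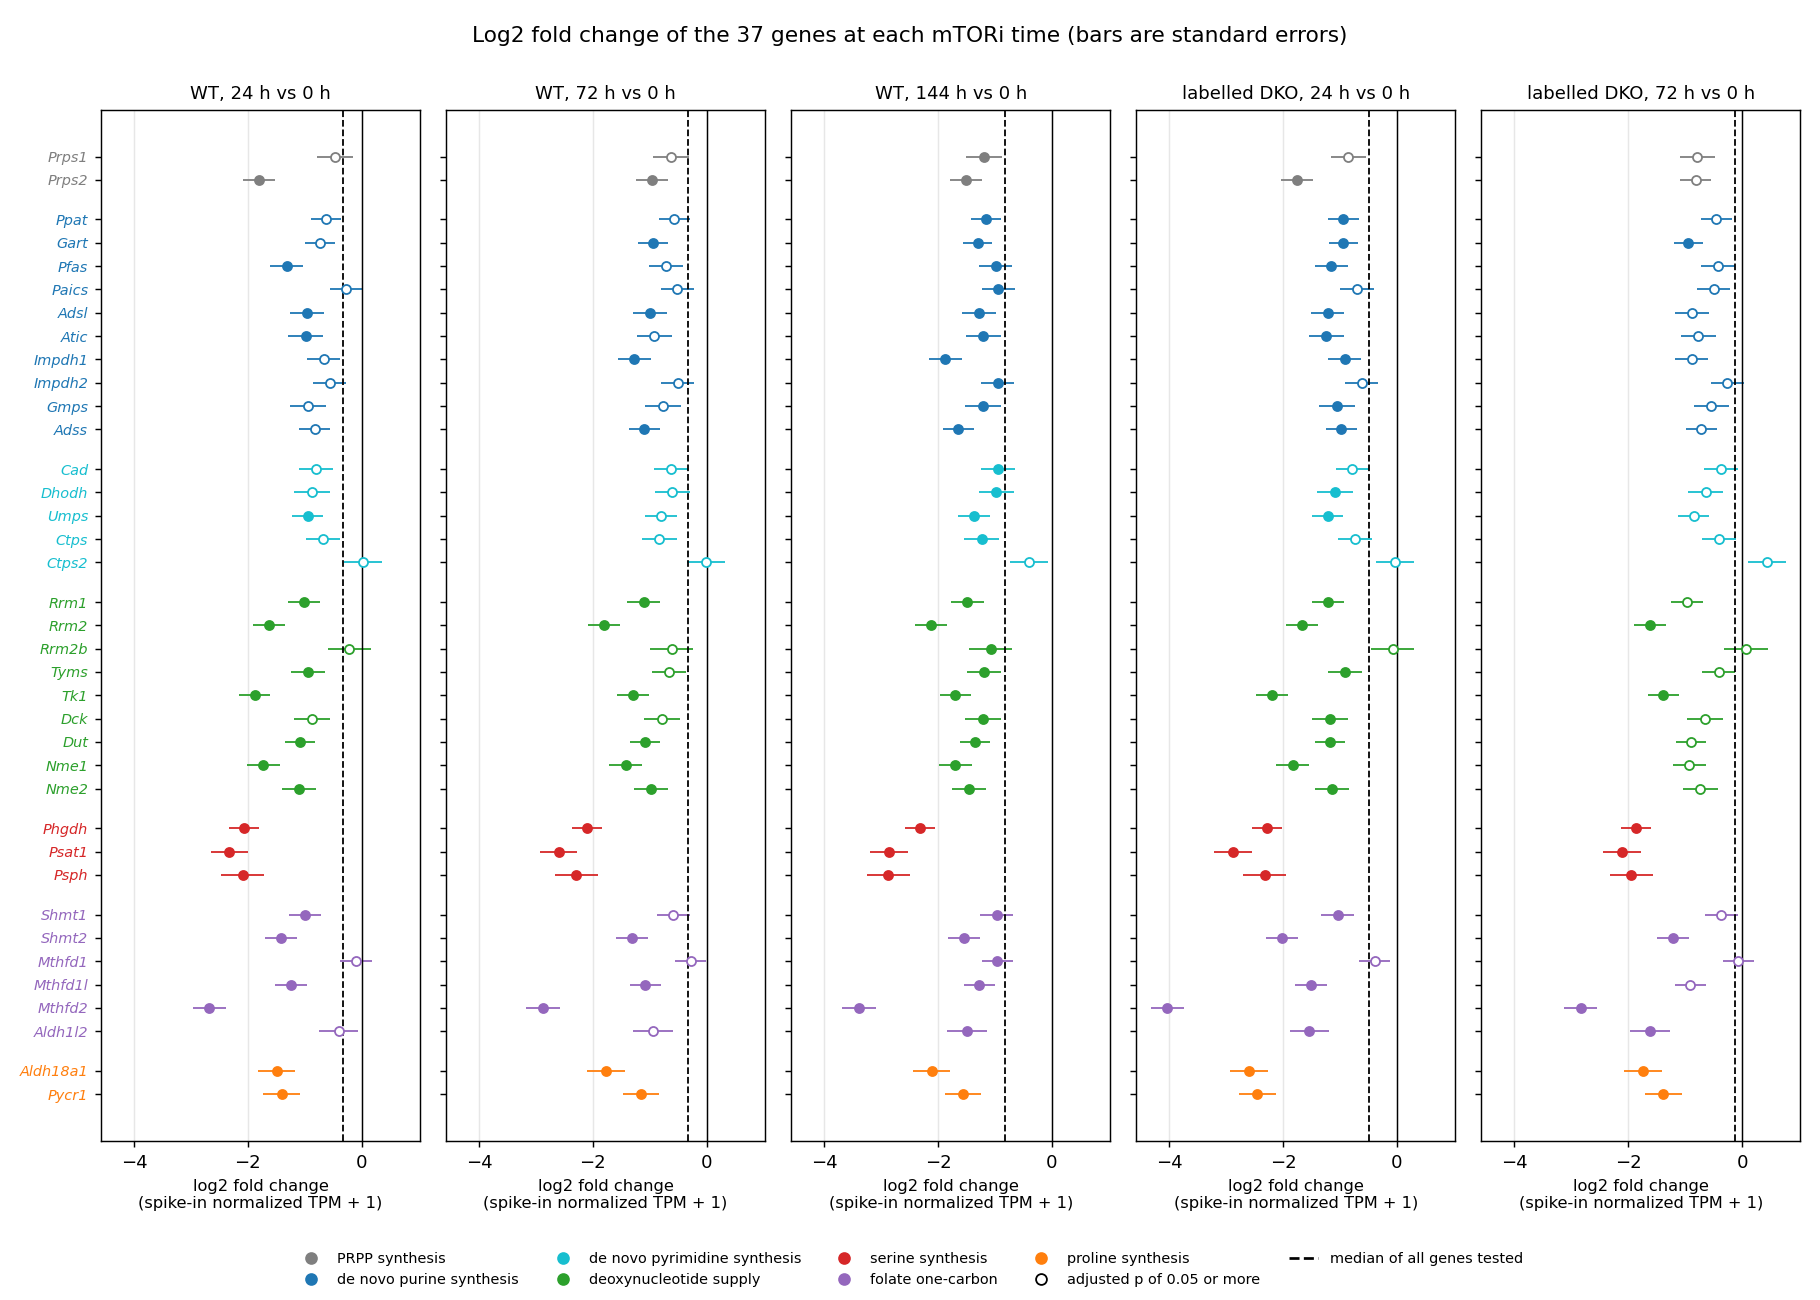
Log2 fold change on the spike-in scale (x axis) of each of the 37 genes (y axis, grouped by role) at each mTORi time against 0 h, with bars for the SE, filled points for an adjusted p under 0.05 and a dashed line at the median of all genes tested. Points lie left of that line for 33 to 36 of the 37 genes in each panel, with Mthfd2 farthest left in each.

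Serine synthesis fell in every comparison with 0 h, with 3 of 3 genes called lower each time, where 8.73%, 7.6%, 50.5%, 18.7% and 2.95% of all genes were. The branch median was −2.09, −2.29 and −2.86 at 24, 72 and 144 h in WT and −2.32 and −1.94 at 24 and 72 h in libraries labelled DKO. The fall was in place at 24 h. Phgdh (chr3:98313170-98339990, minus strand in mm10, the build of all gene positions here), the dehydrogenase that draws carbon from glycolysis into serine, was at 193 and 209 before mTORi, 46.7 and 47.5 after 24 h, 53.5 and 39.1 after 72 h and 42.2 and 36.7 after 144 h in WT. Phgdh was at 258 and 214 before mTORi, 48.9 and 46.2 after 24 h and 70.8 and 58.2 after 72 h in libraries labelled DKO, in spike-in normalized TPM. Every treated library was below every 0 h library of its genotype, and at 24 h the WT mean was 23.4% of that at 0 h (30.6% in deposited TPM). Its log2 fold change was −2.07 ± 0.26 (SE) at 24 h (limma adjusted p = 0.000131) and −2.32 ± 0.26 at 144 h in WT (limma adjusted p = 1.25e-05).

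Psat1 (chr19:15904678-15947337, minus strand), the aminotransferase of the middle step, was at 432 and 514 before mTORi, 75.8 and 115 after 24 h, 88.6 and 66.5 after 72 h and 65.2 and 62.7 after 144 h in WT. Psat1 was at 793 and 564 before mTORi, 130.4 and 62.2 after 24 h and 187 and 128 after 72 h in libraries labelled DKO. It was the serine gene with the highest level at 0 h, and again no treated library reached a 0 h library. Its log2 fold changes were −2.32, −2.60 and −2.86 at 24, 72 and 144 h in WT and −2.88 and −2.10 at 24 and 72 h in libraries labelled DKO, each called, although the last was at an adjusted p of 0.0525 in limma without DKO 72 h replicate 2. Psph (chr5:129765558-129787449, minus strand), the phosphatase that releases serine, was at 67.9 and 89.5 before mTORi, 14.8 and 20.9 after 24 h, 16.0 and 14.4 after 72 h and 10.3 and 9.28 after 144 h in WT. Psph was at 128 and 62.2 before mTORi, 24.2 and 11.9 after 24 h and 28.5 and 17.7 after 72 h in libraries labelled DKO. The 0 h libraries labelled DKO lay far apart for this gene, but both were above all treated ones. Its log2 fold changes were −2.09, −2.29 and −2.87 at 24, 72 and 144 h in WT and −2.32 and −1.94 at 24 and 72 h in libraries labelled DKO. The call at 72 h in WT was lost without WT 72 h replicate 2 (limma adjusted p = 0.0526), and that at 72 h in libraries labelled DKO without 0 h replicate 1 or 72 h replicate 2 (limma adjusted p = 0.120 and 0.126).

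The folate genes are given by compartment. In mitochondria SHMT2, MTHFD2 and MTHFD1L take the carbon of serine to formate, and in the cytosol SHMT1 and MTHFD1 run the matching reactions. Mthfd2 (chr6:83305691-83325908, minus strand), the mitochondrial dehydrogenase and cyclohydrolase, had the lowest log2 fold change of TPM + 1 among the 37 genes in all 5 comparisons. As a share of the 0 h mean on the spike-in scale, Aldh1l2 was lower than Mthfd2 at 72 h in libraries labelled DKO (11.8% against 13.7%). Mthfd2 was at 197 and 222 before mTORi, 27.5 and 37 after 24 h, 31.5 and 24.3 after 72 h and 19.8 and 18.4 after 144 h in WT. Mthfd2 was at 303 and 235 before mTORi, 18.4 and 12.8 after 24 h and 42.2 and 31.7 after 72 h in libraries labelled DKO. The lowest value of any library was at 24 h in those labelled DKO. The log2 fold change was −2.68 ± 0.29, −2.87 ± 0.29 and −3.39 ± 0.29 at 24, 72 and 144 h in WT and −4.03 ± 0.29 and −2.83 ± 0.29 in libraries labelled DKO, with limma adjusted p from 8.94e-08 to 3.67e-05. The call held without any 1 library. In WT its mean at 144 h was 9.12% of that at 0 h, and 18.6% in deposited TPM.

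Mthfd1 (chr12:76255298-76319803, plus strand), the cytosolic enzyme that carries the same activities with a formate-activating domain, was at 422 and 430.1 before mTORi, 354 and 446 after 24 h, 394 and 312 after 72 h and 233 and 207 after 144 h in WT. Mthfd1 was at 570.4 and 497 before mTORi, 501 and 328 after 24 h and 598 and 431 after 72 h in libraries labelled DKO. The groups overlapped at 24 h in WT, and its log2 fold change was −0.10 ± 0.27 there (limma adjusted p = 0.848) and −0.96 ± 0.27 at 144 h (0.00851 in limma, and 0.0609 and 0.0810 without WT 0 h or 144 h replicate 2). In deposited TPM it rose by 0.27 at 24 h in WT (limma adjusted p = 0.0333), and all later WT libraries were above both 0 h libraries, so its direction depends on the scale. The test of a different response between Mthfd2 and Mthfd1 was not run. Their ratio within each library is given further on.

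Shmt2 (chr10:127517123-127522444, minus strand), which moves the serine carbon to folate in mitochondria, was at 366 and 375 before mTORi, 123 and 157 after 24 h, 188 and 116 after 72 h and 138 and 117 after 144 h in WT. Shmt2 was at 562 and 490.4 before mTORi, 153 and 108 after 24 h and 247 and 207 after 72 h in libraries labelled DKO. It fell in each comparison, by −1.41, −1.32 and −1.54 at 24, 72 and 144 h in WT and −2.02 and −1.21 at 24 and 72 h in libraries labelled DKO. The 24 h WT call was lost without WT 0 h replicate 2 or WT 24 h replicate 1 (limma adjusted p = 0.0511 and 0.0651), that at 72 h in WT without either WT 0 h library or WT 72 h replicate 2 (0.0549, 0.0922 and 0.218), and that at 72 h in libraries labelled DKO without either 0 h library or 72 h replicate 2 (0.159, 0.0864 and 0.177). Shmt1 (chr11:60788104-60811718, minus strand), its cytosolic counterpart, was at 205 and 227 before mTORi, 95.2 and 122 after 24 h, 161 and 128 after 72 h and 115 and 105 after 144 h in WT. Shmt1 was at 348 and 296 before mTORi, 201 and 120.3 after 24 h and 299.6 and 208 after 72 h in libraries labelled DKO. Its log2 fold changes were −1.0, −0.58 and −0.97 at 24, 72 and 144 h in WT and −1.04 and −0.36 at 24 and 72 h in libraries labelled DKO, called at 24 and 144 h in WT and at 24 h in libraries labelled DKO. The call at 24 h in WT was lost without any 1 library of the WT 0 h, WT 24 h or WT 144 h groups (limma adjusted p up to 0.278). That at 144 h was lost without WT 0 h replicate 2 or WT 144 h replicate 2 (limma adjusted p up to 0.0816), and that in libraries labelled DKO without either DKO 0 h library or DKO 24 h replicate 2 (limma adjusted p up to 0.168). At 72 h in WT it was called with the replicate block only (limma adjusted p = 0.0484, and 0.205 without), although both libraries there were above both at 24 h.

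Mthfd1l (chr10:3973118-4167081, plus strand), the mitochondrial formate-releasing enzyme, was at 130.3 and 136 before mTORi, 51.4 and 60.0 after 24 h, 71.1 and 55.2 after 72 h and 56.8 and 52.5 after 144 h in WT. Mthfd1l was at 179 and 146 before mTORi, 69.5 and 44.7 after 24 h and 96.6 and 76.1 after 72 h in libraries labelled DKO. It was called lower at all 3 WT times and at 24 h in libraries labelled DKO, and at 72 h there its log2 fold change was −0.90 ± 0.28 (limma adjusted p = 0.0767, and 0.00617 with the replicate block). The 24 h WT call was lost without either WT 0 h library or WT 24 h replicate 1 (limma adjusted p up to 0.101). The 72 h WT call was lost without any 1 library of the WT 0 h or WT 72 h groups (limma adjusted p up to 0.283). Aldh1l2 (chr10:83487450-83534140, minus strand), a mitochondrial enzyme that burns the folate-bound formyl group to carbon dioxide, was the member with the lowest level, at 2.75 and 2.29 before mTORi, 1.51 and 1.81 after 24 h, 1.23 and 0.487 after 72 h and 0.308 and 0.190 after 144 h in WT. Aldh1l2 was at 4.52 and 2.28 before mTORi, 0.584 and 0.353 after 24 h and 0.554 and 0.246 after 72 h in libraries labelled DKO. Its WT values fell from over 2 at 0 h to under 0.5 at 144 h, where it was called (−1.49 ± 0.35, limma adjusted p = 0.00244). The gene passed the filter on low values through the 0 h groups and the WT 24 h group, since all other group means were from 0.249 to 0.861. Its calls against 0 h are therefore not independent of that filter. At such levels the added pseudocount of 1 shrinks the fold change, and at 24 h in WT it was −0.40 ± 0.35 (limma adjusted p = 0.479). In libraries labelled DKO it was called lower at 24 h (−1.54) and 72 h (−1.61), calls lost without DKO 0 h replicate 1 (limma adjusted p = 0.112 and 0.165), and at 72 h also without DKO 72 h replicate 2 (0.139).

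**Figure D2:**
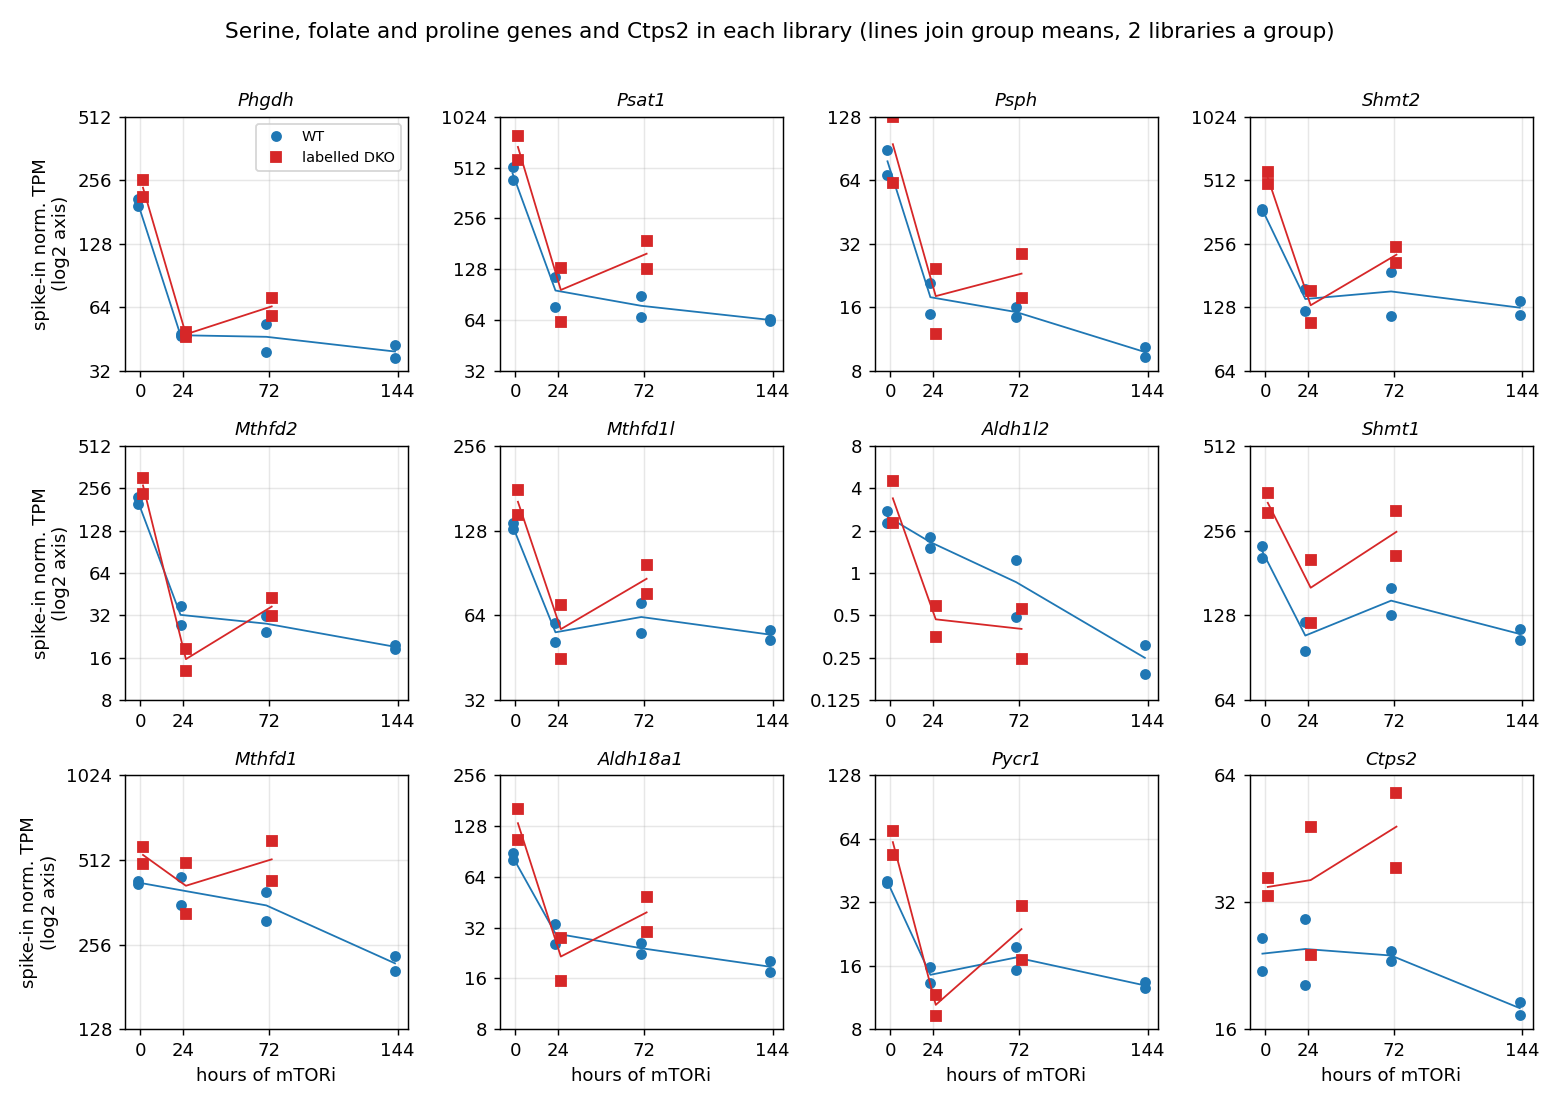
Spike-in normalized TPM (y axis, log2 scale) of 12 genes of serine, folate, proline and CTP synthesis in each library against hours of mTORi (x axis), with circles for WT, squares for libraries labelled DKO and lines through the group means. Phgdh, Psat1, Psph and Mthfd2 are lower in every treated library than in either 0 h library of their genotype, whereas Mthfd1 and Ctps2 overlap with 0 h at 24 h.

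Both proline genes were called lower in each comparison with 0 h, next to 8.73%, 7.6%, 50.5%, 18.7% and 2.95% of all genes. Aldh18a1 (chr19:40550257-40588463, minus strand), which makes pyrroline-5-carboxylate from glutamate, was at 80.3 and 88.6 before mTORi, 25.6 and 33.5 after 24 h, 26.1 and 22.2 after 72 h and 20.2 and 17.4 after 144 h in WT. Aldh18a1 was at 161 and 106 before mTORi, 27.8 and 15.4 after 24 h and 48.8 and 30.1 after 72 h in libraries labelled DKO. Pycr1 (chr11:120635712-120643769, minus strand), the mitochondrial reductase that finishes proline, was at 40.2 and 39.7 before mTORi, 13.3 and 15.7 after 24 h, 19.7 and 15.4 after 72 h and 13.3 and 12.5 after 144 h in WT. Pycr1 was at 70.0 and 53.6 before mTORi, 11.6 and 9.28 after 24 h and 30.7 and 17 after 72 h in libraries labelled DKO. For both genes the treated libraries lay below all 0 h libraries of their genotype, and the lowest level in libraries labelled DKO was at 24 h. The log2 fold changes of Aldh18a1 were −1.49, −1.77 and −2.11 at 24, 72 and 144 h in WT and −2.60 and −1.74 at 24 and 72 h in libraries labelled DKO, and those of Pycr1 −1.41, −1.16 and −1.56 at 24, 72 and 144 h in WT and −2.45 and −1.38 at 24 and 72 h in libraries labelled DKO. At 24 h in WT both calls were lost without WT 0 h replicate 2 (limma adjusted p = 0.0816 for Aldh18a1 and 0.0822 for Pycr1) or WT 24 h replicate 1 (0.0987 and 0.104), and that of Pycr1 also without WT 0 h replicate 1 (0.0694). At 72 h those of Aldh18a1 were lost without WT 0 h or WT 72 h replicate 2 (0.0547 and 0.0998), and without DKO 0 h replicate 1 or DKO 72 h replicate 2 (0.0899 and 0.111). The 72 h calls of Pycr1 were lost without any 1 of 6 WT libraries, with an adjusted p of up to 0.317 in limma, or of 3 libraries labelled DKO (0.233).

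PRPP synthesis rests on a pair of genes, of which 1 was called lower at 24 h in WT, with or without the replicate block (background 25.7% and 8.73%). Prps1 (chrX:140456613-140476140, plus strand) was at 221 and 250.3 before mTORi, 140.1 and 205 after 24 h, 163 and 141 after 72 h and 108 and 96.6 after 144 h in WT. Prps1 was at 357 and 289 before mTORi, 255 and 123 after 24 h and 211 and 164 after 72 h in libraries labelled DKO. Prps2 (chrX:167346322-167382749, minus strand), the less abundant isoform, was at 66.9 and 72.3 before mTORi, 18.5 and 20.1 after 24 h, 39.2 and 31.6 after 72 h and 24.2 and 23.3 after 144 h in WT. Prps2 was at 129 and 121 before mTORi, 43.4 and 30.7 after 24 h and 80.8 and 61.8 after 72 h in libraries labelled DKO. Prps2 was lowest at 24 h in both genotypes and higher again at 72 h, while the WT mean of Prps1 was lowest at 144 h. The log2 fold change of Prps2 was −1.80 ± 0.28 at 24 h in WT (limma adjusted p = 0.000759) and −0.96 ± 0.28 at 72 h (0.0377). The 72 h call was lost without any 1 library of the WT 0 h, WT 72 h, WT 144 h or DKO 0 h groups (limma adjusted p up to 0.339). For Prps1 it was −0.47 ± 0.31 at 24 h (limma adjusted p = 0.345) and −1.19 ± 0.31 at 144 h (0.00485), and its adjusted p was 0.05 in limma without WT 144 h replicate 2. In deposited TPM Prps1 at 144 h was −0.17 (limma adjusted p = 0.309).

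Without the replicate block, every gene of de novo purine synthesis was called lower at 144 h in WT, and fewer in the other comparisons. Of its 10 genes, 3 were called lower at 24 h, 4 at 72 h and 10 at 144 h in WT, and 8 and 1 at 24 and 72 h in libraries labelled DKO (background 8.73%, 7.6%, 50.5%, 18.7% and 2.95%), with branch medians of −0.78, −0.84, −1.21, −0.96 and −0.62. With the replicate block the counts were 8, 7 and 10 in WT and 10 and 5 in libraries labelled DKO, against 25.7%, 25.4%, 66.3%, 38.1% and 13.2% of all genes, so the number at the earlier WT times and at 72 h in libraries labelled DKO depends on the pairing. In deposited TPM the counts were 6, 7 and 2 in WT and 7 and 5 in libraries labelled DKO (background 14.1%, 11.4%, 11.7%, 13.3% and 9.06%). Ppat (chr5:76913249-76951578, minus strand), the amidotransferase of the committed step, was at 254 and 259 before mTORi, 148 and 186 after 24 h, 192 and 154 after 72 h and 114 and 115 after 144 h in WT. Ppat was at 333 and 343 before mTORi, 215 and 143 after 24 h and 287 and 214 after 72 h in libraries labelled DKO. It was called at 144 h in WT (−1.16 ± 0.27, limma adjusted p = 0.00247) and at 24 h in libraries labelled DKO (−0.94 ± 0.27, 0.0200). The call in libraries labelled DKO was lost without either DKO 0 h library or DKO 24 h replicate 2 (limma adjusted p up to 0.163). At 24 h in WT both libraries were below those at 0 h, but the fold change of −0.62 ± 0.27 did not pass the test (limma adjusted p = 0.141, and 0.0360 with the replicate block).

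Paics (chr5:76951307-76967509, plus strand), a bifunctional enzyme of the middle steps, shares its promoter region with Ppat, and the annotated genes overlap by 272 bp on opposite strands. It was at 738 and 857 before mTORi, 583 and 747 after 24 h, 605 and 509 after 72 h and 424 and 405 after 144 h in WT. Paics was at 1108 and 897 before mTORi, 802 and 469 after 24 h and 855 and 583 after 72 h in libraries labelled DKO, among the most abundant of the members. The WT 24 h and 0 h libraries overlapped, with a log2 fold change of −0.27 ± 0.29 (limma adjusted p = 0.582), and at 144 h it was −0.94 ± 0.29 (0.0128). This call was lost without either WT 144 h library or WT 0 h replicate 2 (limma adjusted p up to 0.103), and 1 at 24 h in libraries labelled DKO was added by the replicate block (0.0159). In deposited TPM Paics was called in 0 of the 5 comparisons with 0 h. Gart (chr16:91621186-91646952, minus strand), which carries early and middle steps, was at 620.3 and 599 before mTORi, 359 and 376 after 24 h, 361 and 278 after 72 h and 261 and 234 after 144 h in WT. Gart was at 707 and 680.3 before mTORi, 414 and 313 after 24 h and 422 and 307 after 72 h in libraries labelled DKO. Gart was called lower at 72 and 144 h in WT and at both times in libraries labelled DKO, the last at a limma adjusted p of 0.0456 that was lost without 11 of the 14 libraries taken singly. Its call at 72 h in WT was lost without any 1 library of the WT 0 h, WT 72 h or WT 144 h groups (limma adjusted p up to 0.313). That at 24 h in libraries labelled DKO was lost without either DKO 0 h library or DKO 24 h replicate 2 (limma adjusted p up to 0.139). At 24 h in WT it was called with the block only (limma adjusted p = 0.0128). Pfas, Adsl and Atic fell at 24 h in WT (Pfas −1.32, Adsl −0.96 and Atic −0.98). Each of these calls was lost without WT 24 h replicate 1 or either WT 0 h library (limma adjusted p up to 0.103, 0.389 and 0.415).

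At the branch point IMP goes to AMP through ADSS and to GMP through the IMP dehydrogenases and GMPS. Impdh1 (chr6:29200434-29216364, minus strand) was at 97.7 and 108 before mTORi, 61.3 and 67.6 after 24 h, 42.1 and 41.8 after 72 h and 29.3 and 25.4 after 144 h in WT. Impdh1 was at 195 and 149 before mTORi, 114 and 70.6 after 24 h and 109.5 and 77.2 after 72 h in libraries labelled DKO. Impdh2 (chr9:108560286-108565584, plus strand), the more abundant isoform in these cells, was at 827 and 928 before mTORi, 531 and 662 after 24 h, 656 and 577 after 72 h and 476 and 433 after 144 h in WT. Impdh2 was at 1085 and 918 before mTORi, 833 and 505 after 24 h and 1071 and 652 after 72 h in libraries labelled DKO. In WT both Impdh1 values lay below those of every earlier time at 24, 72 and 144 h, and the gene was higher in both libraries labelled DKO than in both WT libraries at each shared time. Its log2 fold change at 144 h was −1.87 ± 0.29 (limma adjusted p = 0.000150, and −0.86 with 0.000399 in deposited TPM). That of Impdh2 was −0.95 ± 0.29 (0.0127), and 0.079 with 0.526 in deposited TPM. Its call was lost without WT 0 h replicate 2 or WT 144 h replicate 2 (limma adjusted p up to 0.0937), and one at 24 h in libraries labelled DKO was added by the block (0.0300). Gmps (chr3:63976106-64022579, plus strand) was at 84.8 and 101 before mTORi, 41.6 and 54.3 after 24 h, 58.3 and 50.03 after 72 h and 39.6 and 39.4 after 144 h in WT. Gmps was at 102 and 90.0 before mTORi, 64.7 and 32.4 after 24 h and 78.4 and 55.1 after 72 h in libraries labelled DKO. It was called at 144 h in WT (−1.21 ± 0.31, limma adjusted p = 0.00487, and 0.0543 without WT 0 h replicate 2) and at 24 h in libraries labelled DKO (−1.05). The latter was lost without either DKO 0 h library or DKO 24 h replicate 2 (limma adjusted p up to 0.278). The block added calls of Gmps at 24 and 72 h in WT (limma adjusted p = 0.00440 and 0.0172), and of Impdh1 at 24 h in WT and 72 h in libraries labelled DKO (0.0184 and 0.00560). Adss was the purine gene with the lowest WT fold change after Impdh1 at 144 h (−1.65 ± 0.27, limma adjusted p = 0.000246).

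Of the 5 pyrimidine genes 1, 0 and 4 were called lower at 24, 72 and 144 h in WT, and 2 and 0 at 24 and 72 h in libraries labelled DKO, against the same 8.73%, 7.6%, 50.5%, 18.7% and 2.95% of all genes. With the replicate block the counts were 4, 4, 4, 4 and 2 (background 25.7%, 25.4%, 66.3%, 38.1% and 13.2%). Cad (chr5:31054780-31078479, plus strand), the large enzyme of the initial steps and a substrate of the mTORC1 pathway, was at 215 and 250.1 before mTORi, 119 and 148 after 24 h, 159 and 141 after 72 h and 129.6 and 112 after 144 h in WT. Cad was at 352 and 249.4 before mTORi, 217 and 136 after 24 h and 288 and 181 after 72 h in libraries labelled DKO. All WT treated libraries were below 0 h, but the log2 fold change was −0.80 ± 0.30 at 24 h (limma adjusted p = 0.0886, and 0.00708 with the replicate block) and was called at 144 h (−0.94 ± 0.30, 0.0143), a call lost without WT 0 h or 144 h replicate 2 (0.109 and 0.109). Dhodh (chr8:109591343-109608673, minus strand), the mitochondrial step, was at 55.2 and 57.0 before mTORi, 26.5 and 34.4 after 24 h, 38.9 and 34.4 after 72 h and 27.8 and 28.4 after 144 h in WT. Dhodh was at 77.3 and 59.3 before mTORi, 41.8 and 23.5 after 24 h and 51.2 and 36.4 after 72 h in libraries labelled DKO. It was called lower at 144 h in WT (−0.97 ± 0.31, limma adjusted p = 0.0150) and at 24 h in libraries labelled DKO (−1.09 ± 0.31, 0.0197). The first of these was lost without any 1 library of the WT 0 h or WT 144 h groups (limma adjusted p up to 0.0874). The other was lost without DKO 0 h replicate 1 or DKO 24 h replicate 2 (limma adjusted p up to 0.208). The block added calls of Cad at 72 h in WT and 24 h in libraries labelled DKO (limma adjusted p = 0.0296 and 0.00579). It added those of Dhodh at 24 and 72 h in WT and 72 h in libraries labelled DKO (0.00514, 0.0415 and 0.0442 in limma).

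Umps (chr16:33954782-33967038, minus strand), which finishes UMP, was at 167 and 128 before mTORi, 68.3 and 83.2 after 24 h, 93.2 and 74.6 after 72 h and 57.9 and 54.2 after 144 h in WT. Umps was at 170.03 and 209.5 before mTORi, 93.8 and 69.7 after 24 h and 117 and 92.5 after 72 h in libraries labelled DKO. It was called at 24 and 144 h in WT (−0.95 and −1.37) and at 24 h in libraries labelled DKO (−1.21). Its 24 h call in WT was lost without any 1 library of the WT 0 h, WT 24 h or WT 144 h groups (limma adjusted p up to 0.277). The call in libraries labelled DKO was lost without DKO 0 h replicate 2 (limma adjusted p = 0.0667). With the block it was called at 72 h as well (limma adjusted p = 0.0132 in WT and 0.0142 in libraries labelled DKO). Ctps (chr4:120539868-120570276, minus strand) makes CTP from UTP, and was at 189 and 215 before mTORi, 109 and 145 after 24 h, 123 and 103 after 72 h and 88.6 and 81.7 after 144 h in WT. Ctps was at 251 and 212 before mTORi, 188 and 102 after 24 h and 212 and 145 after 72 h in libraries labelled DKO. Ctps2 (chrX:162901238-163032508, plus strand), its less abundant isoform, was at 22.0 and 26.3 before mTORi, 20.4 and 29.2 after 24 h, 24.6 and 23.3 after 72 h and 18.6 and 17.3 after 144 h in WT. Ctps2 was at 36.5 and 33.1 before mTORi, 48.3 and 24.0 after 24 h and 58.1 and 38.7 after 72 h in libraries labelled DKO. Ctps2 was the member that passed no test on the spike-in scale, with log2 fold changes of 0.019, −0.0095 and −0.41 at 24, 72 and 144 h in WT and −0.027 and 0.44 at 24 and 72 h in libraries labelled DKO. In deposited TPM it rose in all 5 comparisons (0.36, 0.39, 0.56, 0.51 and 0.71 in the same order). Ctps, in contrast, was called lower at 144 h in WT on the spike-in scale (−1.24 ± 0.30, limma adjusted p = 0.00317), and with the block also at 24 and 72 h in WT and 24 h in libraries labelled DKO (0.0262, 0.00916 and 0.0126).

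Deoxynucleotide supply fell with 7, 6 and 9 of 9 genes called lower at 24, 72 and 144 h in WT, and 8 and 2 of 9 at 24 and 72 h in libraries labelled DKO, where all genes gave 8.73%, 7.6%, 50.5%, 18.7% and 2.95%. With the replicate block the counts were 8, 8, 9, 8 and 7 (background 25.7%, 25.4%, 66.3%, 38.1% and 13.2%). Its medians were −1.09, −1.08, −1.45, −1.17 and −0.90. Rrm2 (chr12:24708241-24714146, plus strand), the S-phase subunit of ribonucleotide reductase, was at 617 and 568 before mTORi, 184 and 199.9 after 24 h, 194 and 147 after 72 h and 135 and 136 after 144 h in WT. Rrm2 was at 771 and 735 before mTORi, 301 and 187 after 24 h and 307 and 194 after 72 h in libraries labelled DKO. Every treated library was far below 0 h. Its log2 fold changes were −1.62, −1.80 and −2.12 at 24, 72 and 144 h in WT and −1.66 and −1.62 at 24 and 72 h in libraries labelled DKO, all called, with the 72 h calls lost without WT 72 h replicate 2 (limma adjusted p = 0.0518) and without DKO 72 h replicate 2 (0.0824). Rrm1 (chr7:102441695-102469771, plus strand), the large subunit, was at 302 and 278 before mTORi, 131 and 157 after 24 h, 151 and 119 after 72 h and 109.8 and 96.5 after 144 h in WT. Rrm1 was at 440.5 and 428 before mTORi, 244 and 144 after 24 h and 267 and 183 after 72 h in libraries labelled DKO. It was called at all 3 WT times and at 24 h in libraries labelled DKO, with log2 fold changes of −1.01, −1.11 and −1.48 at 24, 72 and 144 h in WT and −1.21 and −0.97 at 24 and 72 h in libraries labelled DKO. Its calls were lost at 24 h in WT without any 1 library of the WT 0 h or WT 24 h groups (limma adjusted p up to 0.231) and at 72 h without any 1 library of the WT 0 h or WT 72 h groups (limma adjusted p up to 0.271). The call at 24 h in libraries labelled DKO was lost without DKO 0 h replicate 1 or DKO 24 h replicate 2 (limma adjusted p up to 0.0799). At 72 h there it was called with the block only (limma adjusted p = 0.00544).

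Rrm2b (chr15:37923952-37961318, minus strand), the p53-inducible small subunit used outside S phase, was near the low end, at 8.47 and 8.46 before mTORi, 5.46 and 9.31 after 24 h, 4.33 and 6.15 after 72 h and 3.18 and 3.86 after 144 h in WT. Rrm2b was at 9.88 and 8.86 before mTORi, 13.1 and 5.91 after 24 h and 11.7 and 8.29 after 72 h in libraries labelled DKO. It overlapped with 0 h at 24 h in WT and at both times in libraries labelled DKO. It was called at 144 h in WT (−1.07 ± 0.38, limma adjusted p = 0.0253), a call lost without any 1 library of the WT 0 h or 144 h groups (up to 0.134), and in deposited TPM it was called in none of the 5 comparisons (at 144 h −0.19, limma adjusted p = 0.514). Tyms (chr5:30058202-30073617, minus strand), which makes thymidylate with a folate-bound carbon, was at 118 and 116 before mTORi, 54.9 and 65.9 after 24 h, 82.8 and 64.7 after 72 h and 49.6 and 51.7 after 144 h in WT. Tyms was at 151 and 147 before mTORi, 107 and 58.2 after 24 h and 134 and 93.5 after 72 h in libraries labelled DKO. It was called at 24 h (−0.95) and 144 h (−1.19) in WT and at 24 h in libraries labelled DKO (−0.91). Both 24 h calls were lost without any 1 of 10 libraries in WT (limma adjusted p up to 0.306) and of 7 in libraries labelled DKO (up to 0.345). With the block it was also called at 72 h in WT (limma adjusted p = 0.0330). Tk1 (chr11:117815526-117826092, minus strand), the cytosolic kinase that salvages thymidine in S phase, was at 120.2 and 99.5 before mTORi, 28.6 and 29.4 after 24 h, 44.4 and 43.7 after 72 h and 35.0 and 31.2 after 144 h in WT. Tk1 was at 211 and 187 before mTORi, 48.0 and 38.0 after 24 h and 93.9 and 61.3 after 72 h in libraries labelled DKO. Its fall was deepest at 24 h in both genotypes, with log2 fold changes of −1.88, −1.29 and −1.70 at 24, 72 and 144 h in WT and −2.19 and −1.38 at 24 and 72 h in libraries labelled DKO. All 5 were called, and the 72 h calls were lost without either library of the WT 0 h or 72 h groups (up to 0.126) and without either DKO 0 h library or DKO 72 h replicate 2 (up to 0.121).

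Nme1 (chr11:93956979-93968521, minus strand) and Nme2 (chr11:93949814-93956259, minus strand) encode neighbouring nucleoside diphosphate kinases, and both overlap the annotated read-through gene Gm20390 on the same strand, so the split of reads between them is uncertain. Nme1 was at 166 and 164 before mTORi, 49.5 and 49.2 after 24 h, 75.9 and 49.2 after 72 h and 55.5 and 45.6 after 144 h in WT. Nme1 was at 262 and 224 before mTORi, 86.2 and 52.7 after 24 h and 137 and 117 after 72 h in libraries labelled DKO. Nme2 was at 1079 and 1392 before mTORi, 505 and 643 after 24 h, 677 and 572 after 72 h and 472 and 422 after 144 h in WT, and 1724 and 1357 before mTORi, 923 and 519.6 after 24 h and 1110.4 and 766 after 72 h in libraries labelled DKO, the highest 0 h level of the 37 genes. The log2 fold changes of Nme1 were −1.72, −1.42 and −1.70 at 24, 72 and 144 h in WT and −1.83 and −0.93 at 24 and 72 h in libraries labelled DKO, and those of Nme2 −1.10, −0.98 and −1.45 at 24, 72 and 144 h in WT and −1.14 and −0.73 at 24 and 72 h in libraries labelled DKO. Both were called at all 3 WT times and at 24 h in libraries labelled DKO. The 72 h call of Nme1 was lost without WT 0 h replicate 2 or WT 72 h replicate 2 (limma adjusted p up to 0.175). Those of Nme2 were lost at 24 h in WT without either WT 0 h library or WT 24 h replicate 1 (limma adjusted p up to 0.246), and at 72 h without any 1 library of the WT 0 h, WT 72 h, WT 144 h or DKO 0 h groups (limma adjusted p up to 0.347). The call in libraries labelled DKO was lost without DKO 0 h replicate 1 or DKO 24 h replicate 2 (limma adjusted p up to 0.158). At 72 h in libraries labelled DKO both were called with the block only (limma adjusted p = 0.00667 and 0.0306). Dut, which removes dUTP, and Dck, the deoxycytidine kinase, were called at 144 h in WT (−1.35 and −1.21), and Dut also at 24 h (−1.09) and 72 h (−1.08). Both were called at 24 h in libraries labelled DKO (−1.17 and −1.17), and with the block in all 5 comparisons. Dut lost its 24 h call without either WT 0 h library or WT 24 h replicate 1 (limma adjusted p up to 0.187) and its 72 h call without any 1 library of the WT 0 h or WT 72 h groups (limma adjusted p up to 0.226). Dck lost its 144 h call without WT 0 h replicate 2 (limma adjusted p = 0.0582).

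Setting both scales side by side shows which falls exceed the shift of the transcriptome. At 144 h in WT the branch medians in deposited TPM were −1.84 for serine, −0.83 for proline, −0.43 for deoxynucleotides, −0.38 for folate, −0.34 for PRPP, −0.19 for purine and 0.031 for pyrimidine genes. At 24 h they were −1.69, −1.06, −0.71, −0.75, −0.75, −0.40 and −0.43 in the same order. Against the median of all genes at 144 h (0.055), the pyrimidine median was the nearest and the serine median the farthest, and 8 of 10 purine genes lay below it. The order of the branches was not tested.

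**Figure D3:**
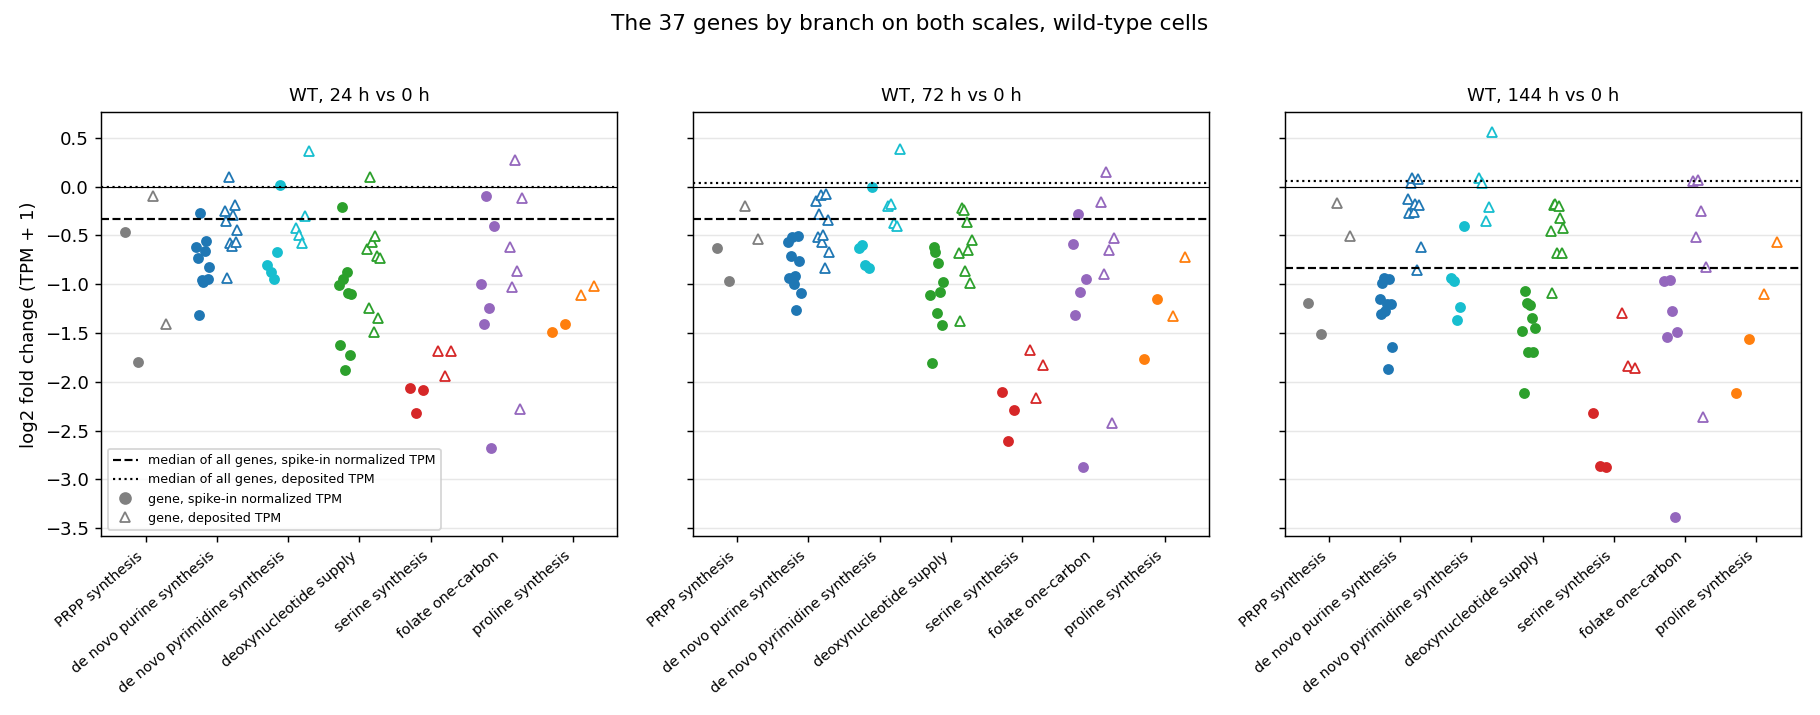
Log2 fold change (y axis) of each gene in its branch (x axis) at 24, 72 and 144 h in WT, with circles for spike-in normalized TPM and open triangles for deposited TPM, and dashed and dotted lines at the medians of all genes on each scale. At 144 h the triangles of 8 of the 10 purine genes lie below the dotted line, while those of the serine genes stay well below it.

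Isoform pairs were also compared as ratios within a library, where the spike-in factor cancels. Mthfd2 to Mthfd1 was 0.466 and 0.517 before mTORi, 0.0775 and 0.0830 after 24 h, 0.0799 and 0.0780 after 72 h and 0.0851 and 0.0892 after 144 h in WT. It was, in libraries labelled DKO, 0.531 and 0.472, 0.0368 and 0.0390 and 0.0705 and 0.0734 at 0, 24 and 72 h. The mRNA of the mitochondrial enzyme thus lost ground to that of the cytosolic one in every treated library, with close replicates. Shmt2 to Shmt1 was 1.78 and 1.66 at 0 h and 1.29 and 1.29, 1.17 and 0.905 and 1.2 and 1.12 at 24, 72 and 144 h in WT, and 1.62 and 1.66, 0.765 and 0.897 and 0.825 and 0.996 at 0, 24 and 72 h in libraries labelled DKO. It moved the same way but less.

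Rrm2 to Rrm2b was 72.8 and 67.1 before mTORi, 33.7 and 21.5 after 24 h, 44.7 and 23.9 after 72 h and 42.6 and 35.2 after 144 h in WT, and 78.1 and 83.0, 23.0 and 31.6 and 26.2 and 23.5 in libraries labelled DKO. Ctps to Ctps2 was 8.57 and 8.18 before mTORi and 4.77 and 4.72 after 144 h in WT, and 6.87 and 6.42 and 3.64 and 3.74 at 0 and 72 h in libraries labelled DKO. For both pairs the mRNA of the more abundant isoform lost ground. Impdh2 to Impdh1 went the other way, from 8.47 and 8.63 at 0 h through 8.66 and 9.78 after 24 h to 15.6 and 13.8 after 72 h and 16.2 and 17 after 144 h in WT, and from 5.55 and 6.15 to 9.78 and 8.44 at 72 h in libraries labelled DKO. Prps1 to Prps2 was 3.31 and 3.46 before mTORi, 7.56 and 10.2 after 24 h, 4.16 and 4.47 after 72 h and 4.47 and 4.15 after 144 h in WT, a peak at 24 h, and 2.76 and 2.38, 5.88 and 4.02 and 2.61 and 2.65 in libraries labelled DKO. With 2 libraries a group an exact permutation test of one ratio cannot go below 0.333, so none is given.

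**Figure D4:**
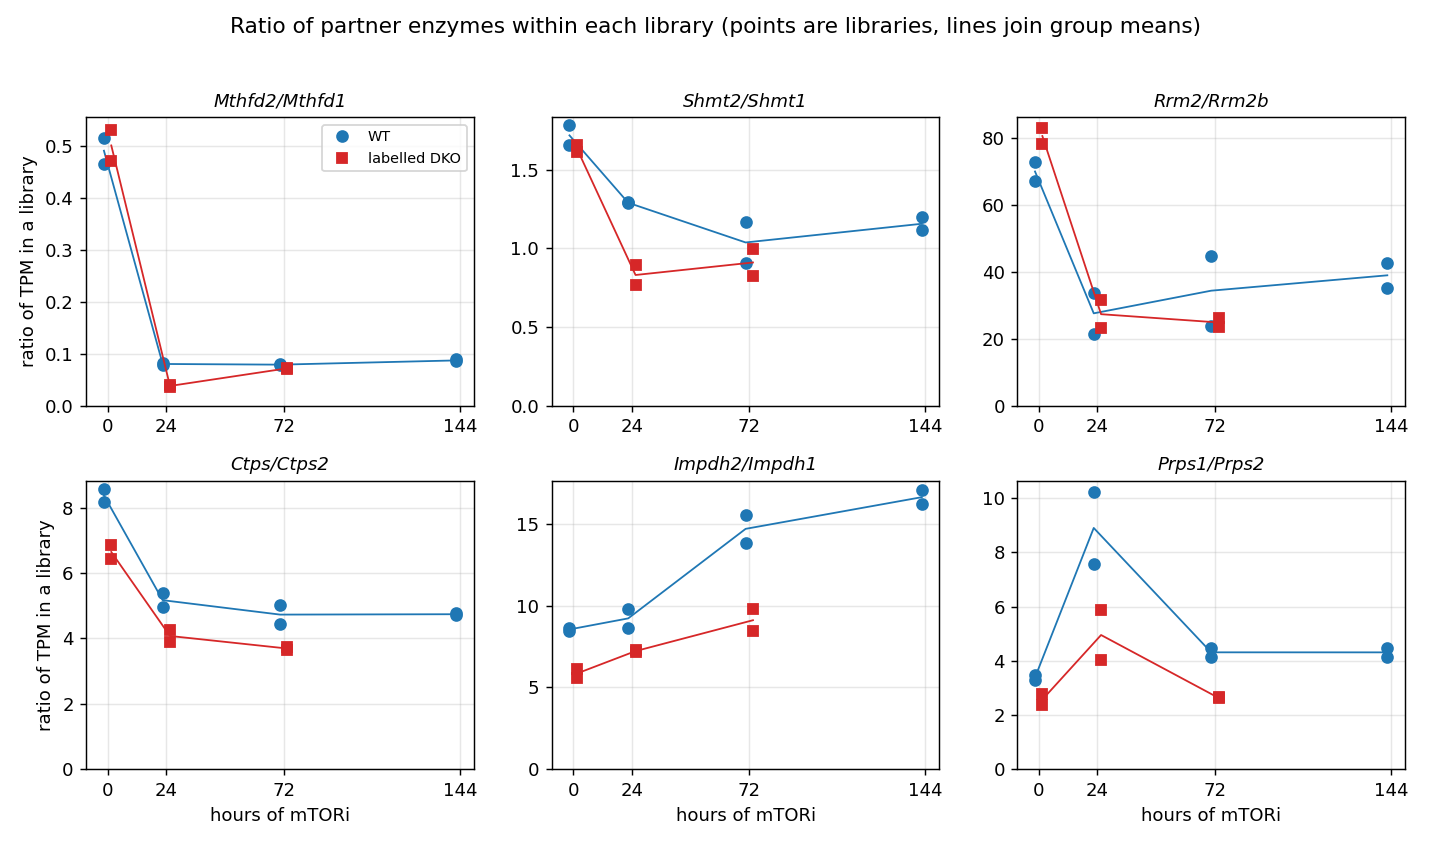
Ratio of TPM within each library (y axis, linear from 0) for 6 isoform or partner pairs against hours of mTORi (x axis), with circles for WT and squares for libraries labelled DKO. The Mthfd2 to Mthfd1 ratio is near 0.5 in the 4 libraries at 0 h and under 0.1 in the 10 treated libraries.

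Successive times were compared after seeing the data. From 24 to 72 h in WT 0 members were called on the spike-in scale (limma, 0 at 72 to 144 h as well, and 3 and 3 at an unadjusted p under 0.05), against 0.559% of all genes lower and 0.428% higher from 24 to 72 h and 0.389% and 0.00548% from 72 to 144 h. With the replicate block Prps2 rose from 24 to 72 h (0.84, limma adjusted p = 0.0189, background 3.2%), and Impdh1 (−0.60, 0.0457) and Mthfd1 (−0.67, 0.0401) fell from 72 to 144 h (background 18.5%). In deposited TPM 5 members rose from 24 to 72 h in WT, namely Prps2 (0.87), Pfas (0.66), Tk1 (0.63), Shmt1 (0.46) and Dhodh (0.32), and 1 fell, Impdh1 (−0.55), against 5.33% and 5.7% of all genes. From 72 to 144 h 0 passed on that scale, where 0.121% of all genes were lower and 0.236% higher. Mthfd2 rose from 24 to 72 h in libraries labelled DKO (1.2 ± 0.29, limma adjusted p = 0.0429), as the only member called there, against 1.32% of all genes called higher and 0.0932% lower. Under the block 10 members rose (background 12.7%), among them Pycr1 (1.07, limma adjusted p = 0.00563), Aldh18a1 (0.86) and Psat1 (0.78), and in deposited TPM 6 rose and 0 fell (background 4.47% and 1.49%). The fitted change was above 0 for 36 of the 37 members there, with a median of 0.43 against 0.37 over all genes. These comparisons share their 24 or 72 h libraries with those against 0 h.

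The genotypes were compared at each shared time. The DKO line was grown from a sorted cell, so an effect of targeting Tet1 and Tet2 cannot be told apart from a difference between clones. On the spike-in scale 0 of 37 members were called at 0, 24 or 72 h, in limma over all genes, where 0.0165%, 0.0329% and 0.0274% of all genes were called lower and 0.0274%, 0.011% and 0.302% higher. An unadjusted p under 0.05 was seen for 3, 3 and 12 members. The fitted difference was above 0 for 37, 27 and 36 of the 37, with medians of 0.35, 0.13 and 0.57, and the medians of all genes were 0.29, 0.10 and 0.49. At 72 h the members with the highest differences were Impdh1 (1.11 ± 0.29, limma adjusted p = 0.0956), Nme1 (1.04 ± 0.29) and Psat1 (1.01 ± 0.33), and those with the lowest were Aldh1l2 (−0.39 ± 0.35), Gart (0.18 ± 0.26) and Dhodh (0.23 ± 0.31). The count at 72 h was 7 without either DKO 24 h library.

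In deposited TPM, where the spread between replicates was smaller, a few members passed the test. At 24 h Mthfd2 was lower in libraries labelled DKO (−1.07, limma adjusted p = 0.00413), and Prps2 (0.77, 0.0175) and Shmt1 (0.43, 0.0320) were higher, against 0.79% of all genes lower and 0.581% higher. At 72 h Impdh1 (0.70, 0.0102 in limma), Prps2 (0.57), Ctps2 (0.54) and Shmt1 (0.38) were higher and 0 members lower, against 3.17% and 0.845% of all genes. At 0 h 0 members passed on this scale, and of all genes 0.176% were lower and 0.422% higher. The Mthfd2 difference at 24 h was −1.01 ± 0.29 on the spike-in scale (limma adjusted p = 0.426).

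The difference between the responses of the genotypes was tested directly. It was called for 0 members at 24 h and 0 at 72 h, in limma with or without the replicate block and on either scale. In the spike-in fit without the block, 4 and 0 members had an unadjusted p under 0.05. Of all genes 0.00548% were called lower at 24 h, and 0% higher or at 72 h, without the block on the spike-in scale. For Mthfd2 at 24 h the fall in libraries labelled DKO exceeded that in WT by a fitted −1.36 ± 0.41 (limma adjusted p = 0.99996). That was the lowest value of the 37 genes, followed by Aldh1l2 (−1.14) and Aldh18a1 (−1.10). With the block the limma adjusted p of Mthfd2 was 0.138. In deposited TPM its difference was −1.12 ± 0.15 (limma adjusted p = 0.123, and 0.141 with the block). The median over members was −0.22 at 24 h and 0.18 at 72 h, next to −0.19 and 0.21 over all genes. A different response was not detectable with these replicates.

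Related genes outside the 37 were read from lists, and their counts stand against 8.73%, 7.6% and 50.5% of all genes called lower at 24, 72 and 144 h in WT and 18.7% and 2.95% at 24 and 72 h in libraries labelled DKO. The medians of all genes were −0.33, −0.33 and −0.83 in WT and −0.49 and −0.12 in libraries labelled DKO. Of 35 tested genes of nucleotide salvage and turnover, 12, 8 and 26 were called lower and 0 higher (1 at 24 h with the replicate block, Uckl1) at 24, 72 and 144 h in WT, with medians of −0.78, −0.65 and −1.12. The counts in libraries labelled DKO were 21 and 3. Its largest falls were Upp1, the uridine phosphorylase (−1.81), and Aprt, the adenine salvage enzyme (−1.58), at 24 h, and Ak1, an adenylate kinase (−2.56), and Ada, adenosine deaminase (−1.91), at 144 h. Of 24 tested genes of folate, methionine and glycine metabolism, 9, 5 and 22 were called lower in WT and 11 and 3 in libraries labelled DKO. They included Ahcy, which clears S-adenosylhomocysteine (−1.67 at 24 h), Cth, of cysteine synthesis (−1.18 at 24 h and −2.26 at 144 h), and Folr1, a folate receptor (−2.56 at 144 h and −0.27, not called, at 24 h).

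Of 4 tested proline and ornithine genes 1, 2, 3, 2 and 1 were called lower in the 3 WT and the pair of DKO comparisons. Pycrl, the cytosolic reductase, was −1.28 at 24 h and −2.01 at 144 h in WT, and Aldh4a1, which degrades proline, −1.58 at 144 h. Of 21 S-phase genes 7, 5 and 20 were called lower in WT and 15 and 2 in libraries labelled DKO, with medians of −0.72, −0.76, −1.19, −1.02 and −0.59. Ccne1, cyclin E1, was −2.52 at 24 h and −1.95 at 144 h in WT, Pcna, the replication clamp, −1.54 at 24 h and Cdc6, an origin licensing factor, −1.75 at 144 h. Counts lower with the block were, over the 5 comparisons, 20, 20, 27, 26 and 14 for salvage, 12, 14, 22, 15 and 6 for folate, methionine and glycine and 12, 16, 20, 20 and 10 for S-phase genes, against backgrounds of 25.7%, 25.4%, 66.3%, 38.1% and 13.2%. The S-phase genes thus had medians below 0, as had the deoxynucleotide genes, and their part in that result was not tested.

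Among 8 regulators of these pathways Atf4 was called lower in each comparison with 0 h. Its log2 fold changes were −1.17, −1.35 and −1.88 at 24, 72 and 144 h in WT and −2.16 and −1.87 at 24 and 72 h in libraries labelled DKO, and −0.79 and −0.85 in deposited TPM at 24 and 144 h in WT (limma adjusted p = 0.000163 and 0.000195). E2f3 was called at 24 h in WT (−1.0) and in libraries labelled DKO (−0.94), E2f2 (−1.14) and Rps6kb1, the S6 kinase (−0.77), at 144 h in WT, and Mycn at 24 h in libraries labelled DKO (−1.28). Myc was −0.26 and −0.24 at 24 and 144 h in WT, E2f1 0.14 and −0.53, and Mtor 0.17 and −0.38, none of them called. In deposited TPM E2f1 (0.49 and 0.45) and Mtor (0.53 and 0.62) were called higher at those times. Myc was 0.11 and 0.78 there, so its direction depends on the scale, and at 144 h it was called higher with the replicate block only (limma adjusted p = 0.00780, and 0.0772 without it). These are mRNA levels, and neither ATF4 protein nor enzyme activity was measured here.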

How the data were processed

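RNA-seq of 14 E14 ES cell libraries (7 groups of 2) was analysed. The authors trimmed the reads, aligned them to mm10 and quantified genes on GENCODE VM19, and the submitters' processing notes name cutadapt 2.4, STAR 2.7.3a and StringTie 2.0. The deposited values are TPM per gene, which sum to 1000000 in each library, hold no ERCC entry and keep no read counts, so the depth is unknown and no counting error can be given. The authors' spike-in normalized table, on hand in shortened form, holds these TPM times 1 factor per library. That factor (the median ratio over genes of at least 1 TPM) was applied here to all genes, and plain deposited TPM were fitted as well.

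The fit used log2(TPM + 1) of the 18232 genes, of 38890 above 0 in any library, that averaged 1 spike-in normalized TPM or more. A fold change on this scale understates the change of low genes. All 7 groups were fitted together in limma 3.58.1 (R 4.3.3, empirical Bayes with a trend), two-sided, with Benjamini-Hochberg adjustment over all genes tested. The fit was tested on simulated data. To see whether replicate numbers pair the libraries, the differences between replicates were correlated across genes for each pair of groups. Within DKO it passed 0.1 in 3 of 3 pairs (0.222 to 0.341), within WT in 5 of 6 (0.0622 to 0.398) and between genotypes in 1 of 12. Per the study's reporting summary the time points of a replicate were processed in parallel, so the numbers were taken to pair libraries within a genotype. The main fit has no block. The alternatives were a block within each genotype, no filter on low values, a pseudocount of 0.1, a block across all libraries, and leaving out each library. The block on deposited TPM and the comparisons between successive times were added after seeing the data.

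The members and the other gene lists were chosen with earlier results of these data known. Each member may be named. Values in every library are given for 27 listed genes and for the 3 members with the highest and lowest fold change in WT at 144 h, in DKO at 72 h and in DKO against WT at 72 h. Of the other lists, the largest 2 called rises and falls at 24 and 144 h in WT and every regulator may be named. The results of the mesendoderm and neuroectoderm marker lists stand in the closing section, and those of the trophectoderm list stand there and in the Results. A gene of the proline and ornithine list is not reported here and was left out of its counts. Of columns with values per sample, 0 could not be mapped to a sample.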

Additional observations from a re-analysis of the deposited data

How the results depend on the processing

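Over 185 log2 fold changes (37 genes in 5 comparisons with 0 h) and 20 alternatives each, 3205 of 3700 values kept their direction and side of the threshold, 287 lost the call, 158 gained it and 50 changed sign. Without the filter on low values, 13, 12, 32, 21 and 8 members were called lower at 24, 72 and 144 h in WT and at 24 and 72 h in libraries labelled DKO, and more genes entered the adjustment. The share of all genes called in that fit is not given, so these counts are not read against a background. With the replicate block within each genotype the counts at 72 h were 31 in WT and 25 in libraries labelled DKO, and with the block across all libraries every count stayed within 1.5 times. In deposited TPM 16 members were called lower at 144 h in WT and 24 at 72 h in libraries labelled DKO, against 11.7% and 9.06% of all genes. With the replicate block 19 and 25 were, against 15.6% and 12.3%. Members called higher in the 5 comparisons numbered 2, 1, 1, 1 and 1, against 15.8%, 12.6%, 15.6%, 11.6% and 17.2%. With the block they numbered 2, 1, 1, 1 and 2, against 19.3%, 16.8%, 19.9%, 15.3% and 23.5%. In deposited TPM DKO against WT gave 3 members at 24 h and 4 at 72 h. Leaving out 1 library gave 8 to 28 members lower at 24 h, 3 to 26 at 72 h and 26 to 36 at 144 h in WT, and 14 to 35 at 24 h and 2 to 22 at 72 h in libraries labelled DKO. DKO against WT at 72 h gave 0 to 7, and all other counts stayed at 0.

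Deposited TPM, with and without the replicate block, reversed the sign of these log2 fold changes, relative to a median of all genes that it moves by over 0.1. At 24 h in WT they were Paics 0.10, Rrm2b 0.10 and Mthfd1 0.27. At 72 h in WT they were Ctps2 0.39 and Mthfd1 0.15. At 144 h in WT they were Pfas 0.037, Paics 0.086, Impdh2 0.079, Cad 0.083, Dhodh 0.031, Ctps2 0.56, Shmt1 0.054 and Mthfd1 0.070. In libraries labelled DKO they were Ctps2 0.51, Rrm2b 0.39 and Mthfd1 0.18 at 24 h, and Impdh2 0.049 and Mthfd1 0.24 at 72 h. The change follows from the scale, since it does not apply the spike-in factor. Leaving out 1 library turned the sign of values near 0, which ran for Ctps2 from −0.23 to 0.27 at 24 h and −0.13 to 0.11 at 72 h in WT and −0.52 to 0.46 at 24 h in libraries labelled DKO, for Rrm2b from −0.55 to 0.12 at 24 h in WT and −0.58 to 0.44 and −0.16 to 0.29 at 24 and 72 h in libraries labelled DKO, for Mthfd1 from −0.27 to 0.065 at 24 h in WT and −0.30 to 0.17 at 72 h in libraries labelled DKO, and for Impdh2 from −0.61 to 0.10 at 72 h in libraries labelled DKO. Of these 9 values 0 were called.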

Other observations

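Markers of other cell types were read for the same libraries, against a background at 24 h in WT of 8.73% of all genes called lower and 1.25% called higher, and of 50.5% and 0.461% at 144 h. Of 6 neuroectoderm genes 3 were called lower at 24 h and 4 at 144 h in WT, led by Tubb3 (−1.83 at 24 h) and Nes (−2.00 at 144 h). Of 6 tested trophectoderm genes 0 and 4 were called lower at those times, with Gata3 (−2.38) and Krt8 (−2.28) lowest at 144 h. The mesendoderm list kept 1 of its 5 genes after the filter, T, which was called higher at 72 h in libraries labelled DKO (1.25), against 0.713% of all genes. The 5 genes together averaged only 4.12 spike-in normalized TPM at 0 h and 5.72 at 72 h in those libraries. At 144 h in WT 4 of 7 primitive endoderm genes were called lower, with Gata4 (−1.84) and Sox7 (−1.77) lowest. Of 7 ES cell identity genes 3 were called lower, with Nanog (−1.63) and Pou5f1 (−1.02) lowest. Both counts are near the 50.5% of all genes. In deposited TPM 3 of the 7 ES cell identity genes were called higher and 1 lower, with a median of 0.40 against 0.055 over all genes (called higher 15.6%, lower 11.7%). With the replicate block 5 were called higher and 1 lower, against 19.9% and 15.6% of all genes.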
